A study of Mus musculus with 6 samples.

Results

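The liver X receptors (LXRs) and the genes that carry cholesterol out of macrophages were examined in resting bone-marrow-derived macrophages (BMDMs) with and without CITED2, a transcriptional co-regulator that binds CBP and p300. The genes were chosen by name and role, with earlier results of these data known. They are 10 of the 22248 genes listed: the receptors *Nr1h2* and *Nr1h3*, the transporters *Abca1* and *Abcg1*, the carriers and cofactors *Apoe*, *Pltp* and *Apoc2*, the lipase *Lpl*, the acyltransferase *Lpcat3* and the ubiquitin ligase gene *Mylip*. Of these, 9 passed a filter on low values, and *Apoc2* did not. Control BMDMs (3 libraries) came from Lyz2cre mice, which carry a Cre allele at *Lyz2* and no floxed *Cited2*. CITED2-deficient BMDMs (3 libraries) came from Lyz2cre:CITED2Fl/Fl mice, in which both *Cited2* alleles are floxed and the same Cre, made from the *Lyz2* promoter of myeloid cells, deletes them. Both groups therefore carry Cre, and both are on the C57BL/6 background, at postnatal week 10 in the labels (the methods of the study give a younger age). The cells were grown from marrow with macrophage colony-stimulating factor and received no stimulus. The series description gives 3 mice, without saying which library came from which mouse, so p-values measure the spread between these libraries.

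LXRα (*Nr1h3*) and LXRβ (*Nr1h2*) are nuclear receptors that sense oxysterols and desmosterol. They pair with retinoid X receptors (RXRs) on DNA elements called DR4, a direct repeat of AGGTCA with a spacer, and turn on genes that export cholesterol when a cell is loaded with it. Macrophages take up large amounts of lipoprotein and membrane cholesterol, and in these cells ABCA1 passes cholesterol to lipid-poor apolipoprotein A-I while ABCG1 passes it to mature high-density lipoprotein.

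The promoter of *Abca1* is shown because it was the closest of the promoters examined here to the DR4 element that LXR:RXR pairs bind. RefSeq windows of 300 bases, from 250 before to 50 after a start site, were matched for 8 of the 10 genes (11 start sites, GRCm38.p6). *Abcg1* and *Lpl* were not matched. The *Abca1* window lies at chr4:53159846-53160145 on the minus strand and is written 5′ to 3′, with the 16 bases closest to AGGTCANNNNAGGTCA in capitals.
Abca1 promoter: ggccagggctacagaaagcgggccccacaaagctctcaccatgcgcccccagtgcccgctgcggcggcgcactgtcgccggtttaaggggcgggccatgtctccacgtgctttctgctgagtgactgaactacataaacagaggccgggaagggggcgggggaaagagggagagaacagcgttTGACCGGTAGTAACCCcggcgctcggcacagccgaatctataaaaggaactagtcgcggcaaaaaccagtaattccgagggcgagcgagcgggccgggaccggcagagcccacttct
Read on the opposite strand, the capital letters hold the motif with 3 mismatches, from position -67 to position -52 relative to the start site. The next lines give this match beside the closest matches at both LXR genes, with the repeats in capitals and the spacer in lower case.
Abca1 match: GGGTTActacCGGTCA
Nr1h3 match: AGGTCCcggcACGGCC
Nr1h2 match: AGTTCCggaaAGTTCT
The *Nr1h3* and *Nr1h2* matches have 4 mismatches each. Matches with up to 3 mismatches, on either strand, occurred in 1 of the 11 promoters of these genes and in 21.9% of all 32851 promoters in the table. With up to 4 mismatches they occurred in 9 of 11 and in 76.9%, so such a match is common. The *Nr1h3* windows overlap and hold the same match, which is counted for each of them, and *Apoe* also has more than 1 window among the 11. With up to 2 mismatches there were 0 of 11, against 3.02% of all promoters. The *Abca1* window also holds TATAAA (searched on both strands), as did 4 of the 11 promoters (*Abca1*, *Apoe*, *Mylip* and *Pltp*) and 13.6% of all promoters. These are matches of letters, and binding was not tested.

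The 6 libraries held 17289286 to 18952077 fragments in control and 22583995 to 26100410 in CITED2-deficient BMDMs, numbers recovered from the deposited values, and the mean depth was 1.34 times higher without CITED2. Levels are FPKM (fragments per kilobase of transcript, scaled to library size), which are scaled for gene length. Comparisons of level between genes therefore depend on the transcript length used for each gene. Differences were tested as log2(FPKM + 1) with limma over the 11687 genes with a mean of at least 1 FPKM, with Benjamini-Hochberg adjustment over all of them. Fold changes on this scale understate the change of low genes. *Cited2* itself was at 71.7, 79.3 and 75.5 FPKM in control and at 9.27, 7.22 and 7.53 FPKM in CITED2-deficient BMDMs (log2 fold change -3.09, SE 0.08, adjusted p = 6.57e-09 by limma). Over all tested genes the log2 fold change had a median of -0.10, so small falls lie close to the bulk of genes. After median-ratio scaling between libraries this median was -0.01, and where this scaling ends the call of a gene named below, its value is given.

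The genes did not move as 1 block. In CITED2-deficient BMDMs *Nr1h3*, *Abcg1* and *Mylip* were higher, while *Pltp*, *Lpl*, *Apoe*, *Lpcat3* and *Nr1h2* were lower and *Abca1* did not pass the threshold. Thus 3 of 9 tested genes rose, where 16.7% of all tested genes did, and 5 of 9 fell, where 34.6% did. After median-ratio scaling 3 rose and 2 fell, where the shares of all tested genes were 22.5% and 22%. The 3 rises and the falls of *Pltp* and *Lpl* were called in all 17 alternative fits tried. The libraries of the groups did not overlap for 8 of the 9 genes, *Lpcat3* being the exception, and for 59.9% of all tested genes. The median of the 9 log2 fold changes was -0.13, beside -0.10 for all tested genes.

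**Figure D1:**
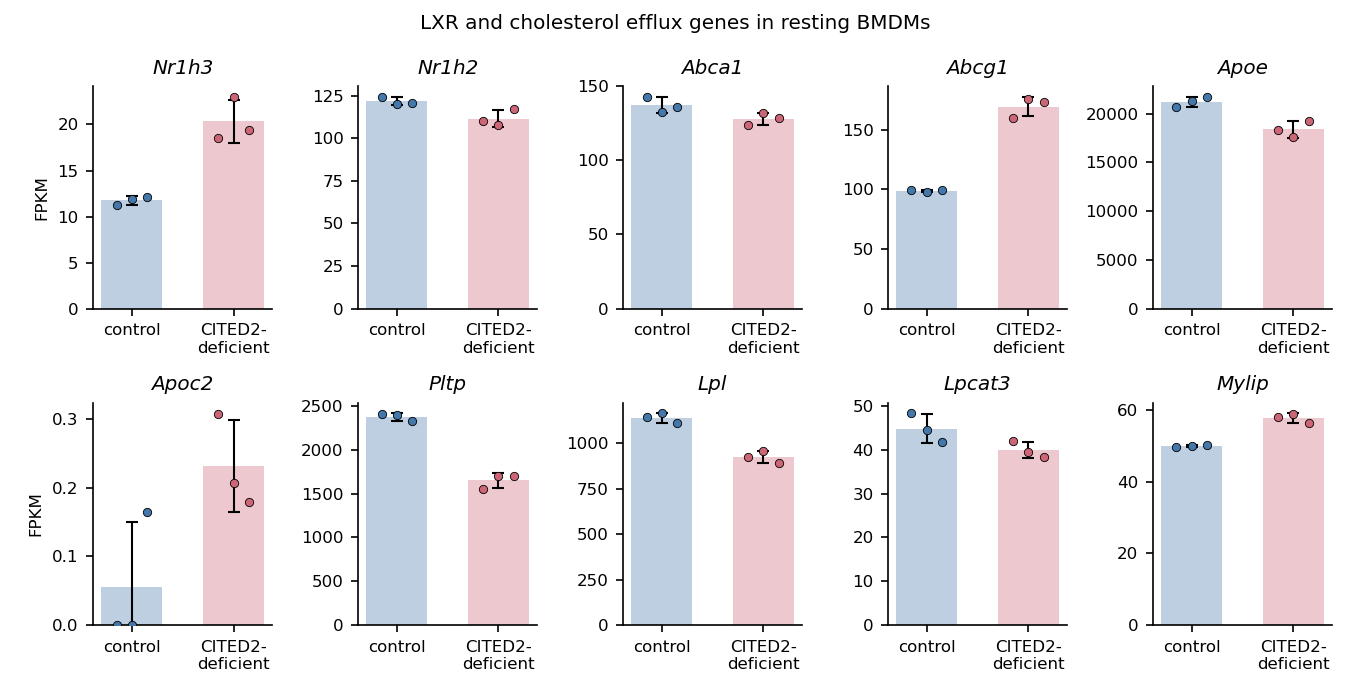
FPKM (linear axis from 0, own scale for each gene) of the 10 genes in each library, with points for the 3 control and the 3 CITED2-deficient libraries, columns for the group means and error bars for the SD. *Nr1h3*, *Abcg1* and *Mylip* sit higher and *Pltp*, *Lpl* and *Apoe* lower in all CITED2-deficient libraries, while *Lpcat3* overlaps.

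The receptors went in opposite directions. *Nr1h3* (ENSMUSG00000002108, chr2:91184061-91202834 in mm10), the LXR isoform typical of macrophages, liver and fat, was at 11.2, 11.9 and 12.1 FPKM in control and at 18.6, 23.0 and 19.4 FPKM in CITED2-deficient BMDMs. Each CITED2-deficient library was above each control library, and CITED2-deficient replicate 2 was the highest. The means were 11.7 ± 0.447 and 20.3 ± 2.37 FPKM (SD, n = 3 each), a 1.73-fold rise (log2 fold change 0.74, SE 0.08, adjusted p = 6.32e-05 by limma). Without any 1 library the log2 fold change was 0.65 to 0.80. *Nr1h2* (ENSMUSG00000060601, chr7:44549616-44553951), the ubiquitous isoform, was at 124, 120.0 and 121 FPKM in control and at 110.1, 108 and 117 FPKM in CITED2-deficient BMDMs. The groups did not overlap, but the mean of 112 ± 4.75 FPKM was still 0.916 of the control mean of 122 ± 2.34 FPKM (log2 fold change -0.13, SE 0.04, adjusted p = 0.0198 by limma). This call was made in 10 of 17 alternative fits and was lost after median-ratio scaling (log2 fold change -0.03, adjusted p = 0.549). It was also lost without control replicate 1 (adjusted p = 0.0719), CITED2-deficient replicate 1 (adjusted p = 0.0534) or CITED2-deficient replicate 2 (adjusted p = 0.0645).

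*Nr1h2* was by far the more abundant receptor in both groups, and the balance between the receptors shifted. The ratio of *Nr1h3* to *Nr1h2* FPKM within a library was 0.0904, 0.0988 and 0.10 in control and 0.169, 0.214 and 0.166 in CITED2-deficient BMDMs. A ratio within a library does not depend on how libraries are scaled. It was 1.88-fold higher without CITED2, in all 3 libraries (difference of log2 ratios 0.91; exact permutation p = 0.1, two-sided, the smallest that 3 against 3 libraries allow).

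The transporters also parted. *Abcg1* (ENSMUSG00000024030, chr17:31057675-31117988) was at 99.6, 97.5 and 99.1 FPKM in control and at 160.0, 176 and 173 FPKM in CITED2-deficient BMDMs. The control libraries lay within a narrow range and every CITED2-deficient library was well above it. The means were 98.7 ± 1.13 and 169.6 ± 8.36 FPKM, a 1.72-fold rise (log2 fold change 0.77, SE 0.04, adjusted p = 4.41e-07 by limma), of about the size of the rise of *Nr1h3*. *Abca1* (ENSMUSG00000015243, chr4:53030787-53159895), whose product starts the loading of apolipoprotein A-I, was at 143, 133 and 136 FPKM in control and at 124, 132 and 128 FPKM in CITED2-deficient BMDMs. The highest CITED2-deficient library lay just under the lowest control library. The mean of the CITED2-deficient libraries was 0.933 times that of control, which did not pass the threshold (log2 fold change -0.10, SE 0.04, adjusted p = 0.0549 by limma), and after median-ratio scaling the log2 fold change was -0.0039 (adjusted p = 0.948). The call is close to the threshold, since leaving out control replicate 2 (adjusted p = 0.0424) or CITED2-deficient replicate 2 (adjusted p = 0.0418) brought it under.

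The order of the transporters by FPKM was reversed. *Abca1* FPKM were 1.43, 1.36 and 1.37 times those of *Abcg1* in control and 0.773, 0.75 and 0.742 times in CITED2-deficient BMDMs. The ratio fell to 0.544 of its control value (difference of log2 ratios -0.88, exact permutation p = 0.1, the smallest possible). This shift does not depend on transcript length. Which transporter is the higher does, with mean lengths of 5518 bases for *Abca1* and 1969 for *Abcg1*. In recovered fragments *Abca1* stayed above *Abcg1* in every library. In the order of FPKM, *Abca1* and *Nr1h2* were above *Abcg1* in every control library, and *Abcg1* was above both in every CITED2-deficient library. The other genes kept their places, from *Apoe*, *Pltp* and *Lpl* at the top, through *Mylip* and *Lpcat3*, to *Nr1h3* and *Apoc2*. No library of *Mylip* overlapped one of *Lpcat3* in the same group, although in control the gap (49.6 against 48.4 FPKM) was smaller than the SD of *Lpcat3*.

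**Figure D2:**
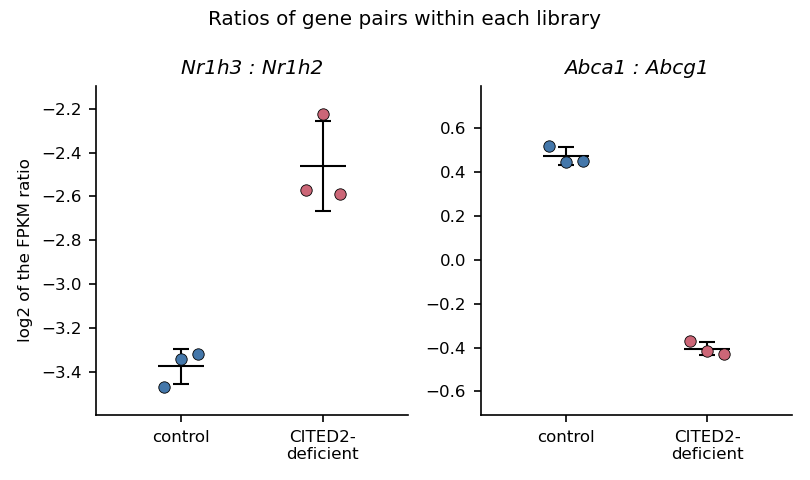
Ratios of FPKM within each library (*Nr1h3* to *Nr1h2* and *Abca1* to *Abcg1*, log2 axis), with a point for each library and bars for the mean and SD of each group. The first ratio rises 1.88-fold and the second falls to 0.544 of its control value, with no overlap between the groups in either.

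Of the carriers that accept or move lipid outside the cell, *Pltp* was lower by both scalings, *Apoe* was lower as deposited only, and *Apoc2* was not tested. *Apoe* (ENSMUSG00000002985, chr7:19696109-19699188), the apolipoprotein that macrophages secrete themselves, had the highest FPKM of all listed genes in each of the 6 libraries. It was at 20642, 21281 and 21705 FPKM in control and at 18267, 17604 and 19260 FPKM in CITED2-deficient BMDMs, 1.79% to 1.89% and 1.53% to 1.67% of all fragments. The groups did not overlap, and the mean of 18377 ± 834 FPKM was 0.866 of the control mean of 21209 ± 535 FPKM (log2 fold change -0.21, SE 0.04, adjusted p = 0.0017 by limma). After median-ratio scaling the call was lost (log2 fold change -0.11, adjusted p = 0.0698), as it was with no filter on low genes (adjusted p = 0.147). *Pltp* (ENSMUSG00000017754, chr2:164839518-164857711), which encodes the phospholipid transfer protein that enlarges high-density lipoprotein, was at 2403, 2396 and 2323 FPKM in control and at 1556, 1702 and 1699.9 FPKM in CITED2-deficient BMDMs. It was the strongest fall of the group, well clear of the control range. The means were 2374 ± 44.3 and 1653 ± 83.7 FPKM, 0.696 of the control level (log2 fold change -0.52, SE 0.04, adjusted p = 4.76e-06 by limma; -0.43 after scaling). *Pltp* shares 495 of its 2562 exon bases with *Ctsa* on the opposite strand. The libraries were stranded, but the strand setting of the counting is not known here. *Ctsa* was at 1368 to 1378 FPKM in control and at 1381 to 1404 FPKM in CITED2-deficient BMDMs.

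*Apoc2* (ENSMUSG00000002992, chr7:19671579-19677941), the activator of lipoprotein lipase, was at the edge of detection. The recovered fragments were 0, 0 and 2 in control and 5, 3 and 3 in CITED2-deficient BMDMs. No fold was computed at these counts, and the difference missed the threshold when the filter was left out (adjusted p = 0.0755 by limma). In addition, 79.5% of its exon bases are shared on the same strand with the gene model *Gm44805*, so its level is uncertain.

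*Lpl* (ENSMUSG00000015568, chr8:68880491-68907448), the lipase that frees fatty acids from triglyceride-rich lipoproteins, was at 1142, 1163 and 1111 FPKM in control and at 926, 955 and 889 FPKM in CITED2-deficient BMDMs. All CITED2-deficient libraries lay under all control libraries, and the replicates were tight. The means were 1138 ± 26.3 and 923 ± 33.1 FPKM, 0.811 of the control level (log2 fold change -0.30, SE 0.03, adjusted p = 6.48e-05 by limma; -0.21 and adjusted p = 0.00143 after scaling). *Lpl* is also an adipocyte gene, and control replicates 1 and 2 held traces of adipocyte markers (summed level of 6 markers 8.20 and 13.0 FPKM, against 0.154 in control replicate 3 and at most 0.235 without CITED2). Against control replicate 3 alone the log2 fold change of *Lpl* was -0.27 (adjusted p = 0.0117 by limma, in which the lone library is assumed to vary like the CITED2-deficient ones).

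*Lpcat3* (ENSMUSG00000004270, chr6:124663027-124704418), which puts polyunsaturated acyl chains into membrane phospholipids, was at 48.4, 44.5 and 41.7 FPKM in control and at 42.1, 39.6 and 38.4 FPKM in CITED2-deficient BMDMs. Control replicate 3 was under CITED2-deficient replicate 1, so the groups overlapped. The mean of 40.0 FPKM was 0.892 of the control mean of 44.9 FPKM, just past the threshold (log2 fold change -0.16, SE 0.06, adjusted p = 0.0482 by limma) and was made in 8 of 17 alternative fits, being lost after scaling (adjusted p = 0.385). It was also lost without control replicate 1 (adjusted p = 0.162), control replicate 2 (adjusted p = 0.0901), CITED2-deficient replicate 2 (adjusted p = 0.105) or CITED2-deficient replicate 3 (adjusted p = 0.147). *Lpcat3* shares 10.2% of its exon bases with *Emg1* on the opposite strand, which was itself lower (log2 fold change -0.32, adjusted p = 0.0018 by limma).

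*Mylip* (ENSMUSG00000038175, chr13:45389742-45412022) encodes IDOL, a ubiquitin ligase that LXRs induce and that limits lipoprotein uptake. It was at 49.6, 50.2 and 50.3 FPKM in control and at 58.3, 59.0 and 56.4 FPKM in CITED2-deficient BMDMs. The groups were apart and the replicates close together. The means were 50.04 ± 0.35 and 57.9 ± 1.33 FPKM, a rise of 15.8% (log2 fold change 0.21, SE 0.03, adjusted p = 0.00102 by limma; 0.30 after scaling). Protein was not measured.

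**Figure D3:**
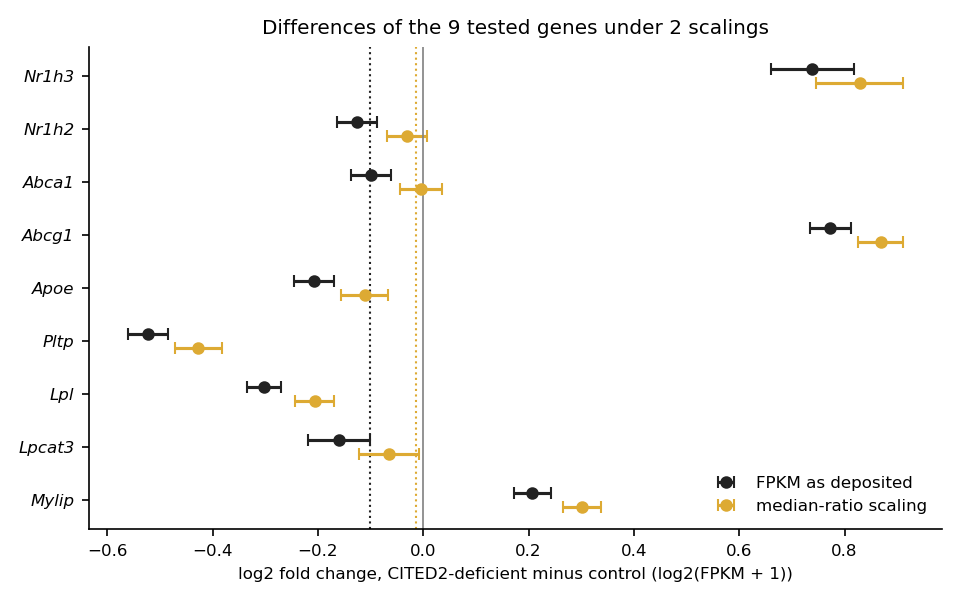
Log2 fold change (CITED2-deficient over control, log2(FPKM + 1) scale, bars are 1 SE from limma) of the 9 tested genes as deposited and after median-ratio scaling, with the median of all tested genes (-0.10 as deposited) as a line. *Nr1h3* and *Abcg1* lie near 0.8 by both scalings, *Pltp* and *Lpl* stay under 0, and *Nr1h2* and *Abca1* move to near 0 after scaling.

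The partners and coregulators of LXR were examined next, in a list of 18 genes of which 17 were tested. Of these, 5 were higher, 5 were lower and 7 did not pass the threshold (7 higher and 3 lower after scaling), with a median log2 fold change of -0.03. The shares of all tested genes were 16.7% higher and 34.6% lower (22.5% and 22% after scaling), so the falls are near the share of all genes. *Rxra*, which encodes the main RXR partner of LXR in macrophages, was at 62.3, 59.2 and 63.1 FPKM in control and at 36.3, 34.2 and 35.5 FPKM in CITED2-deficient BMDMs (log2 fold change -0.78, SE 0.04, adjusted p = 5.88e-07 by limma). It thus fell while *Nr1h3* rose. *Rxrb* fell from 54.1 to 43.9 FPKM (log2 fold change -0.29, adjusted p = 0.000587), and *Rxrg* was near 0. *Med1*, a Mediator subunit that binds nuclear receptors, rose from 17.7 to 22.9 FPKM (log2 fold change 0.36, adjusted p = 0.000482). *Ncor1*, *Crebbp* and *Gps2* did not pass the threshold.

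Of other known LXR target genes, 13 were tested in a list of 18. Of these 2 rose, 5 fell and 6 did not pass the threshold (4 higher and 4 lower after scaling), near the 16.7% and 34.6% of all tested genes that rose and fell. *Smpdl3a*, an LXR-responsive phosphodiesterase gene, rose from 206 to 326 FPKM (log2 fold change 0.66, adjusted p = 1.63e-06 by limma), and *Cd5l*, a secreted macrophage survival factor, from 142 to 195 FPKM (log2 fold change 0.45, adjusted p = 2.67e-05). *Cd38* fell from 5.84 to 3.01 FPKM (log2 fold change -0.77, adjusted p = 0.000174) and *Acsl3*, an acyl-CoA synthetase gene, from 10.7 to 7.83 FPKM (log2 fold change -0.40, adjusted p = 0.0067). *Srebf1*, through which LXRs drive fatty acid synthesis, did not pass the threshold (63.7 against 61.1 FPKM, adjusted p = 0.269). *Scd1*, a desaturase gene, was at 3.52, 6.59 and 1.28 FPKM in control and at 2.84, 1.79 and 1.59 FPKM in CITED2-deficient BMDMs, which overlap (adjusted p = 0.289). Its control libraries differed as the adipocyte markers did, highest in replicate 2 and lowest in replicate 3. Against control replicate 3 alone its log2 fold change was 0.41 in place of -0.50, and without control replicate 3 it was -0.95 (adjusted p = 0.0157). *Apoc1* and *Apoc4*, neighbors of *Apoe*, were under the filter, with 7 to 10 and 0 to 3 fragments in control and 1 to 7 and 0 in CITED2-deficient BMDMs.

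Of the enzymes that make or remove LXR ligands, 7 of 12 were tested, and 1 rose and 1 fell, no larger shares than the 16.7% and 34.6% of all tested genes. *Ch25h*, which makes 25-hydroxycholesterol, was low but apart, at 0.157, 0.300 and 0.156 FPKM in control and at 1.37, 1.87 and 2.67 FPKM in CITED2-deficient BMDMs (log2 fold change 1.28, SE 0.18, adjusted p = 0.000408 by limma). *Cyp27a1*, which makes 27-hydroxycholesterol, fell from 139 to 96.9 FPKM (log2 fold change -0.52, adjusted p = 1.47e-06). The other 5 tested genes did not pass the threshold. No sterol was measured.

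Of genes of cholesterol uptake, storage and transport inside the cell, 18 were tested in a list of 20. Of these 8 rose, where 16.7% of all tested genes did, 5 fell, where 34.6% did, and 5 did not pass the threshold. After median-ratio scaling 9 rose and 5 fell, where the shares of all tested genes were 22.5% and 22%. Leaving out 1 library gave 5 or 6 rises, with 5 in place of 8 without control replicate 1 or CITED2-deficient replicate 2. *Npc2*, which hands cholesterol to the lysosomal membrane, rose from 476 to 908 FPKM (log2 fold change 0.93, adjusted p = 7.55e-09 by limma), and *Npc1*, which exports it, fell from 137 to 114 FPKM. *Stard3*, which tethers late endosomes to the endoplasmic reticulum, rose from 73.4 to 121 FPKM (log2 fold change 0.72, adjusted p = 2.76e-06). *Gramd1b*, a carrier of plasma membrane cholesterol to the endoplasmic reticulum, fell from 54.7 to 33.2 FPKM (log2 fold change -0.70, adjusted p = 9.48e-07). *Cav1*, a gene of caveolae that fibroblasts also express, rose from 5.15 to 13.6 FPKM (log2 fold change 1.24, adjusted p = 1.99e-05). The scavenger receptor genes *Cd36* and *Scarb1* fell, from 460 to 373 FPKM and from 78.2 to 62.1 FPKM.

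Of the lipase partners and apolipoproteins, 4 of 15 were tested, and 1 rose and 2 fell (16.7% and 34.6% of all tested genes). *Angptl4*, an inhibitor of lipoprotein lipase, rose from 4.49 to 7.01 FPKM (log2 fold change 0.55, adjusted p = 0.00252 by limma), while *Furin*, a protease that cleaves the lipase and its inhibitors, fell from 75.5 to 44.9 FPKM (log2 fold change -0.74, adjusted p = 4.94e-06). *Sel1l*, which helps the lipase to fold, fell from 77.4 to 70.4 FPKM (adjusted p = 0.0161), a call lost after scaling (adjusted p = 0.409) and without control replicate 1 (adjusted p = 0.0626) or CITED2-deficient replicate 2 (adjusted p = 0.0526). Of 4 tested acyltransferase relatives of *Lpcat3*, 3 fell, where 34.6% of all tested genes did: *Lpcat1* from 54.0 to 39.6 FPKM (adjusted p = 1.53e-05), *Mboat7* from 57.4 to 45.4 FPKM (adjusted p = 0.000228) and *Lpcat2* from 30.4 to 25.8 FPKM (adjusted p = 0.00831, lost after scaling with adjusted p = 0.0836).

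**Figure D4:**
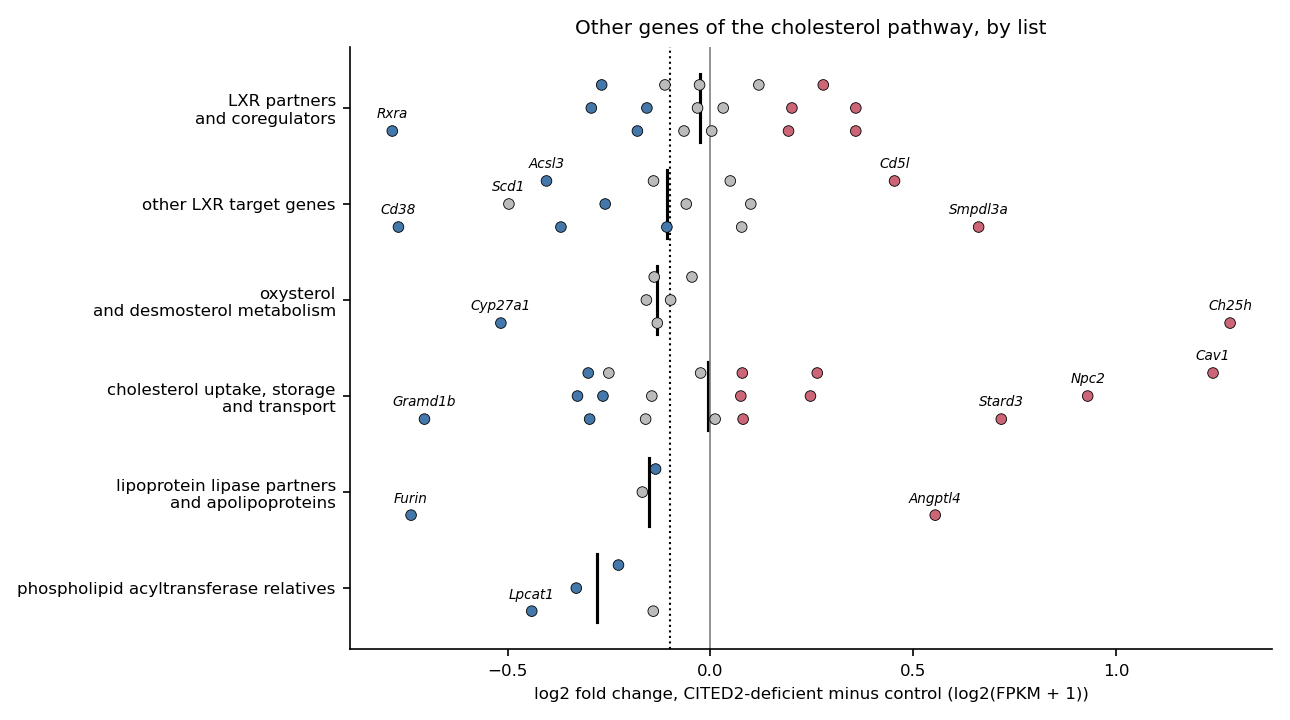
Log2 fold change (CITED2-deficient over control, log2(FPKM + 1) scale) of each tested gene of the pathway lists, 1 row for each list, with red points for rises and blue points for falls past the threshold, grey points for the others, and a black bar for the median of each list. Rises and falls stand in every list but the acyltransferase relatives, where 3 of 4 genes fell and 0 rose.

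The labelled cell type was checked with marker genes. All 8 macrophage markers were above 1 FPKM in every library, with a summed level of 5929 to 6001 FPKM in control and 5350 to 5438 FPKM in CITED2-deficient BMDMs. Among them 5 fell and 1 rose, with *Mrc1* going from 353 to 104 FPKM and *Fcgr1* from 172 to 482 FPKM. Of all tested genes 34.6% fell and 16.7% rose, and after median-ratio scaling 22% and 22.5%. The counts of each marker list stand beside these shares. *Lyz2*, the locus that drives Cre in both groups, fell from 31.3 to 9.75 FPKM. Fewer cells of a type and less RNA per cell cannot be told apart in bulk RNA. Of 10 fibroblast or stromal markers, 7 were tested and all 7 rose, with a sum of 43.0 to 51.5 FPKM in control and 548, 173 and 174 FPKM in CITED2-deficient replicates 1 to 3, most of it *Col1a1* and *Col1a2*. *Lum* and *Thy1* stayed under 1 FPKM in all libraries. Without CITED2-deficient replicate 1, the library with the highest sum, the log2 fold changes of *Abcg1*, *Nr1h3* and *Cav1* were 0.81, 0.80 and 1.12. The CITED2-deficient libraries kept still had stromal sums of 173 and 174 FPKM, so this fit does not remove the stromal difference between the groups. Of 6 B and T cell markers, 5 were under 1 FPKM in every library, as were 4 of 5 listed dendritic cell markers and all 4 listed erythroid markers. Of 7 tested granulocyte markers 5 fell, among them *Elane* (12.4 to 2.15 FPKM), *Mpo* (16.2 to 1.95 FPKM) and *Camp* (47.0 to 23.1 FPKM), while *Ltf* rose from 94.3 to 177 FPKM. The 8 markers of that list summed to 727 to 795 FPKM in control and 658 to 777 FPKM in CITED2-deficient BMDMs. Of 5 endothelial markers 3 were tested and 2 rose, nearly all of it *Kdr* (4.26 to 27.5 FPKM), while *Tek* and *Emcn* were under 1 FPKM. The megakaryocyte sum was 315 to 344 FPKM in control and 79.2 to 90.8 FPKM in CITED2-deficient BMDMs. This came from *Pf4* (319.7 to 75.4 FPKM), while *Ppbp* (2.26 to 4.17 FPKM) and *Itga2b* (2.90 to 4.08 FPKM) rose and the fourth tested marker did not pass the threshold. The part of these other markers in the results was not tested.

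**Figure D5:**
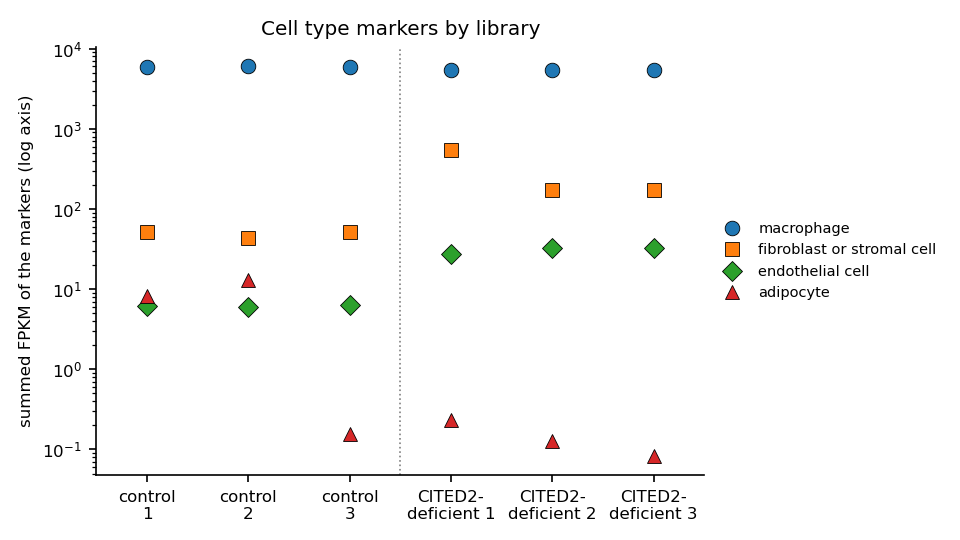
Summed FPKM of the macrophage, stromal, endothelial and adipocyte marker lists (log axis) in each of the 3 control and 3 CITED2-deficient libraries. Stromal markers are higher in all CITED2-deficient libraries, with replicate 1 at 548 FPKM, and adipocyte markers stand out in control replicates 1 and 2 at 8.20 and 13.0 FPKM.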

How the data were processed

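Total RNA of unstimulated BMDMs was profiled in 3 control and 3 CITED2-deficient libraries, grouped by the sample titles. Per the labels and the methods of the study, ribosomal RNA was removed, stranded libraries were made, and reads were mapped to mm10 with STAR. The authors deposited 1 FPKM value per gene and library from Cuffdiff with the GENCODE annotation. Tool versions and the strand setting were not given in the sources used here. FPKM are divided by length and library size, so a few abundant genes can shift all others.

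Fragment numbers were recovered with the mean transcript lengths of GENCODE vM21. For 96.1% of 22239 matched genes all 6 values were within 0.02 of a whole number. Genes with a mean of at least 1 FPKM were compared as log2(FPKM + 1). The model was limma 3.58.1 (R 4.3.3) with a trended variance, Benjamini-Hochberg adjustment and a threshold of 0.05. The fit was tested on simulated data in which a small part of the genes changed, some up and some down. In the real data 5994 of 11687 tested genes were called, so the simulation does not test the scaling between libraries. Ratios were compared by two-sided exact permutation tests over libraries.

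The genes were taken by name, and the members, lists and tests were chosen with earlier results of these data known. Genes named from a list are direct partners of the members and up to 4 of its called genes, taken by size of change where the groups were apart. *Npc1*, *Cd36*, *Scarb1*, *Rxrg*, *Ncor1*, *Crebbp*, *Gps2*, *Ctsa* and *Emg1* were named after their values were seen. Other settings tried were pseudocounts of 0.1 and 0.5, leaving the filter out or raising it to 5 FPKM, median-ratio scaling, quantile normalization, no trend, array weights, a replicate block, limma-voom on recovered fragments, a fold of at least 1.5, and each library left out. Control replicate 3 alone was added after adipocyte markers were seen in the other two. Fold changes and p-values of the study were not used, and some genes of the lists are not reported here.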

Additional observations from a re-analysis of the deposited data

How the results depend on the processing

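The rises of *Nr1h3*, *Abcg1* and *Mylip* and the falls of *Pltp* and *Lpl* held in all 17 alternative fits. The 5 falls among the 9 genes became 2 under median-ratio scaling or quantile normalization, and 3 with no filter, no variance trend or control replicate 3 alone. A fold of at least 1.5 left 0 falls and 2 rises among them, without *Mylip*. Under median-ratio scaling or quantile normalization, 3 partners and coregulators fell in place of 5 and 4 other targets rose in place of 2, and median-ratio scaling left 1 fall in place of 2 among the lipase partners. With control replicate 3 alone, 3 partners rose and 2 fell, 5 transport genes rose in place of 8, and 1 lipase partner fell. No trend gave 5 transport rises and 1 lipase partner fall. No filter gave 2 oxysterol falls in place of 1 and 2 lipase partner rises in place of 1, and a filter at 5 FPKM left 0 oxysterol rises. With a fold of at least 1.5 there were 0 rises and 1 fall of partners, 1 rise and 1 fall of other targets, 0 oxysterol falls, 3 rises and 1 fall of transport genes, 0 rises and 1 fall of lipase partners, and 0 falls of acyltransferases. *Scd1* reversed to 0.41 with control replicate 3 alone, and *Srebf1* to 0.035 under median-ratio scaling. The cause of these changes was not tested, apart from the shift of the median that the scaling itself makes. Quantile normalization cannot show a change in *Apoe*, the highest gene of every library.

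Leaving out each library in turn gave 3 to 5 falls and 3 rises among the 9 genes, 3 to 5 falls and 5 to 6 rises of partners, 1 to 2 oxysterol falls, 5 to 6 rises of transport genes and 1 to 2 falls of lipase partners. The counts farthest from those reported came without control replicate 1 for the 9 genes (3 falls), partners (3 falls), oxysterol genes (2 falls) and transport genes (5 rises), without CITED2-deficient replicate 2 for lipase partners (1 fall) and transport genes (5 rises), and without CITED2-deficient replicate 3 for partners (3 falls). The groups share replicate numbers, but same-numbered libraries did not deviate together (correlations 0.008 to 0.04, 3 pairs). No pairing by number was thus seen, which cannot exclude that libraries were handled in pairs. With the replicate block the 9 genes still gave 3 rises and 5 falls, and 5 transport genes rose in place of 8. Depth limits *Apoc2*, *Apoc1* and *Apoc4*, at 0 to 10 fragments, and with 3 against 3 libraries no exact permutation p can go below 0.1.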
